A study of Mus musculus with 9 samples.

Results

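Gene counts in tumour-infiltrating ICOS+ CD4 T cells were compared between mice given an antibody against CTLA-4 and control mice, mainly for the 1335 genes that reached 5 CPM (the count of a gene scaled to 1000000 gene counts) in each of the 6 libraries. These consistently detected genes were 1335 of the 45808 in the table, while 10226 genes reached 5 CPM in at least 1 of the 6 libraries. All mice were C57BL/6J carrying MC38 tumours, a mouse colon adenocarcinoma line, and cells were taken on day 12 after tumour cell injection. Each of the 3 control and 3 anti-CTLA-4 libraries came from 1 mouse, and 3 anti-PD-1 libraries of the same series entered the statistical fit, where they add to the estimate of the spread and to the choice of tested genes and scaling factors. What the controls received, which antibody clone and dose were used, and how many cells were sorted are not stated in the labels. Because each mouse gave little RNA, the libraries were made with a kit for single-cell amounts, and all groups share this amplification and the sort on CD4 and ICOS. The sort means that all cells, controls included, had been selected for an activated state.

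CTLA-4 is an inhibitory receptor of T cells that competes with the costimulatory receptor CD28 for the ligands CD80 and CD86. It is abundant on regulatory T cells, which carry the transcription factor Foxp3 and the high-affinity interleukin-2 receptor chain Il2ra (CD25). ICOS, a relative of CD28, appears on T cells after activation and is high on regulatory T cells in tumours. Antibodies against CTLA-4 can block the receptor and, depending on the antibody class, remove cells that carry much of it.

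Anti-CTLA-4 replicate 2 stood apart from the other 5 libraries, so the main results are given with and without it. The 3 control libraries held 6258, 6309 and 6051 genes at 5 CPM or more, and the 3 anti-CTLA-4 libraries held 5382, 2662 and 5124, in the order of replicates 1, 2 and 3 used for all values here. The counts did not overlap between the groups (6206 ± 137 against 4389 ± 1501, SD, n = 3 each). The difference of the means was -1817 genes, and -953 without replicate 2. These values entered the choice of genes and of the library set aside, so they are a description with no test. Total gene counts were 30471361 to 41508589 per library, and replicate 2, with 35566460, was not shallow. The consistently detected genes took 63.9%, 62.7% and 63.4% of gene counts in the controls and 63.8%, 72.8% and 63.9% with anti-CTLA-4. They made up 50.1% of the genes at 5 CPM in replicate 2, against 21.2% to 26.1% in the other 5 libraries. Without replicate 2, 2494 genes were detected at 5 CPM in each of the 5 libraries, and 1159 of these were lost through replicate 2, where 1028 were under 1 CPM. The genes just inside the limit were Ints7, Aff4 and Abca7, with lowest values of 5.01, 5.02 and 5.03 CPM, and those just outside were Helz2, Smad5 and Ccdc55, with 4.98, 4.96 and 4.95 CPM.

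Replicate 2 differed from the others also within the consistently detected genes. The standard deviation of a gene's log2 CPM from its own mean over the 6 libraries was 0.92, 0.87 and 0.95 in the controls, 1.76 in anti-CTLA-4 replicate 2 and at most 1.04 in the other anti-CTLA-4 libraries. The typical gene differed by a factor of 1.60 to 1.67 between 2 controls, by 1.66 to 1.73 between a control and anti-CTLA-4 replicate 1 or 3, and by 1.73 between those anti-CTLA-4 libraries. Against replicate 2 the same median factor was 2.72 to 2.99. Mice of different groups thus differed by about as much as mice of 1 group once replicate 2 was set aside. Replicate 2 was the lowest of the 6 libraries for 426 genes and the highest for 454. In anti-CTLA-4 replicates 1 and 3, 46.2% and 45.9% of the genes lay inside the range of the 3 controls, and in replicate 2 22.8% did. Pearson's r of log2 CPM across the 1335 genes, which share library depth and gene composition, was 0.639 to 0.723 between pairs without replicate 2 and 0.323 to 0.387 with it.

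**Figure D1:**
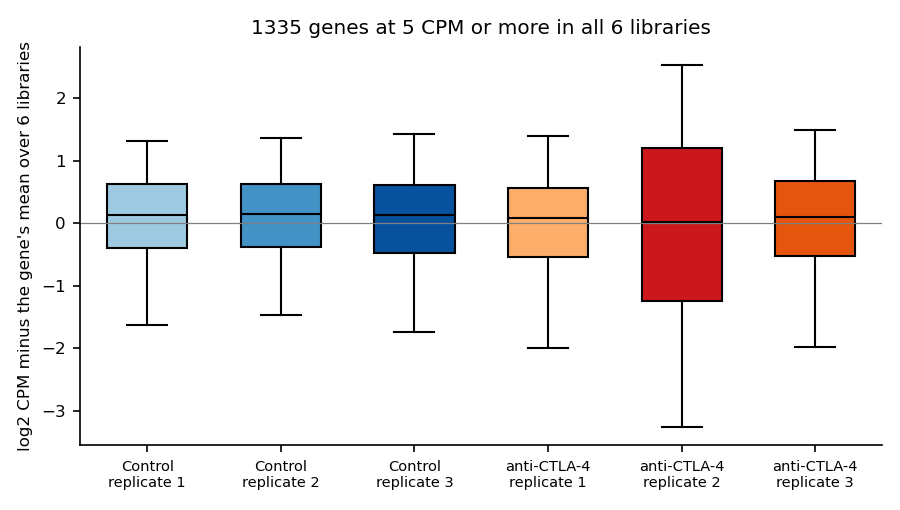
Log2 CPM of each of the 1335 consistently detected genes minus that gene's mean over the 6 libraries, by library; boxes span the quartiles, lines mark medians and whiskers reach the 5th and 95th percentiles. The box of anti-CTLA-4 replicate 2 (SD 1.76) is wider than those of the other 5 libraries (SD 0.87 to 1.04).

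The genes with the widest departure in replicate 2 included Tyrobp, a marker of other cells, and genes outside the marker lists. Of the latter, Nedd4, Arf4 and Ints7 read 2288, 1353 and 1013 CPM in replicate 2. Tyrobp read 42.5, 21.3 and 58.2 CPM in the controls and 6.20, 1874 and 97.9 CPM with anti-CTLA-4, and this signalling adaptor is carried by myeloid and NK cells. Lyz2 was measured at 277, 18.5 and 66.6 CPM in the controls and 66.9, 1492 and 98.1 CPM with anti-CTLA-4, and it encodes the lysozyme of macrophages and neutrophils. The immediate early factor Jun read 116, 12.8 and 32.4 and 18.1, 1140.0 and 8.26 CPM in the same order. Tyrobp, Lyz2 and Jun were far higher in replicate 2 than in any other library, and the other anti-CTLA-4 libraries lay within or near the control range. In the other direction, Cd2 read 724, 544 and 761 CPM in the controls and 437, 23.7 and 316 CPM with anti-CTLA-4, and Cd2 is an adhesion receptor of T cells. Msi2, an RNA-binding protein, had 558, 579.9 and 560.3 CPM in control mice and 423, 5.23 and 503 CPM in the treated mice. Tyrobp, Jun, Msi2, Nedd4, Arf4 and Ints7 were picked for their distance in replicate 2 after their values were seen. Lyz2 and Cd2 are named from the marker lists, and none of these genes carries a test here. Of 16 macrophage and monocyte markers, 2 were consistently detected (Tyrobp and Lyz2), and their summed level over all 16 was 350 to 766 CPM in controls, 8141 CPM in replicate 2 and 1333 and 518 CPM in anti-CTLA-4 replicates 1 and 3. The markers differed among themselves in replicate 2, where Il1b (1357 CPM) and Nos2 (1287 CPM) were the next highest after Tyrobp and Lyz2, whereas Fcer1g (0.0562 CPM), C1qa (0.0843 CPM), Apoe (0.169 CPM) and Cd14 (0 CPM) were the 4 of 16 below 1 CPM, and C1qb read 1.996 CPM against 44.4 to 55.2 CPM in the controls. Of 6 fibroblast markers, which summed to 228 to 672 CPM in controls and 1612 CPM in replicate 2, Col3a1 was the 1 consistently detected, and in replicate 2 Dcn read 0.0281 CPM, Pdgfrb 0 CPM and Sparc 24.4 CPM. Both CD8 markers (Cd8a at 0 counts), the 3 NK markers, the 4 epithelial markers and the 2 erythroid markers were below 1 CPM in all 6 libraries. The dendritic, neutrophil, B cell and endothelial lists held no consistently detected gene but were read in part of the libraries. Their highest sums were 75.6, 34, 63.8 and 28.8 CPM in a control and 249.8, 267, 0 and 183.8 CPM in an anti-CTLA-4 library. Of 8 CD4 T cell markers, 5 were consistently detected, and the sum was 2795 to 3710 CPM in controls and 2192 CPM in replicate 2. Within that list Cd4 itself read 324, 599 and 594 CPM in the controls and 439.9, 24.5 and 308 CPM with anti-CTLA-4, whereas Cd3g read 284, 115 and 256 CPM in the controls and 182, 649 and 348 CPM with anti-CTLA-4. The part of other cells or of RNA amplification in any difference reported here was not tested, and in bulk RNA fewer cells of a type cannot be told apart from less RNA per cell.

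Of the consistently detected genes, 1 passed the threshold with all libraries and none without replicate 2. The quasi-likelihood test of edgeR, with p adjusted by Benjamini and Hochberg's method, called 3 of 7858 tested genes (0.0382%) at an adjusted p under 0.05, all higher with anti-CTLA-4. The called member of the set was Psap, 1 of 1335 (0.0749%). Psap (ENSMUSG00000004207, GRCm38 chromosome 10, 60277627 to 60302597) encodes prosaposin, the precursor of lysosomal lipid-degrading cofactors. It read 411, 416 and 326 CPM in the controls and 163, 4805 and 863 CPM with anti-CTLA-4, so replicate 1 lay below every control and replicates 2 and 3 above. The fitted log2 change was 2.44 (SE 0.56), edgeR adjusted p = 0.0306, and 0.42 without replicate 2, where the edgeR adjusted p = 1. Psap was higher in 2 of 3 anti-CTLA-4 libraries, its groups overlapped, and it kept the call in 4 of 18 alternative fits. The other called genes, Xylt2 and Fmn1, were below 0.33 CPM in every control and read 0.0328, 1225 and 75.2 CPM, and 73.0, 1008 and 52.9 CPM, with anti-CTLA-4. Without replicate 2, edgeR called 0 of 9308 tested genes (0%), with 396 at an unadjusted p under 0.05, of which 29 were consistently detected, and no other tool was run without it. With all libraries, DESeq2 called 558 genes, 170 higher and 388 lower, 18 of them consistently detected and all higher, while limma voom with quality weights called 0. DESeq2's scaling also moved the median log2 change of the consistently detected genes from 0.15 to 3.19, so its directions for these genes are relative to that shift.

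At an unadjusted p under 0.05 in edgeR, 18 members were higher (1.35%, against 1.95% of all tested genes) and 10 were lower (0.749%, against 6.96%). All 18 higher genes had their highest value in replicate 2, and 9 of the 10 lower genes had their lowest there. Without replicate 2, 10 members were higher (0.749%, against 2.07% of 9308) and 19 lower (1.42%, against 2.18%). The members' shares were thus below those of all genes tested, both with and without replicate 2. Fitted changes were positive for 760 of the 1335 genes with replicate 2 and for 663 without it, and the median log2 change was 0.15 and -0.0021.

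**Figure D2:**
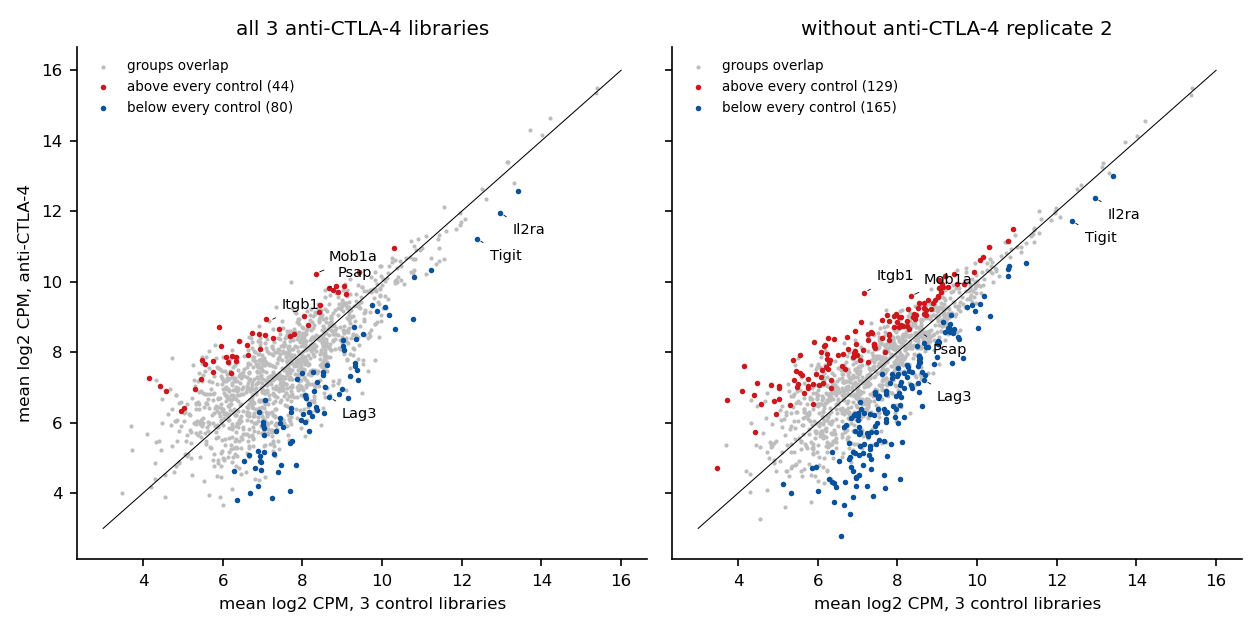
Mean log2 CPM of the 1335 genes in the controls (x) against anti-CTLA-4 (y) with all 3 anti-CTLA-4 libraries (left) and without replicate 2 (right); coloured points have every anti-CTLA-4 library above (red) or below (blue) every control. With all libraries 44 genes lie above and 80 below, and without replicate 2 129 and 165; Il2ra, Tigit and Lag3 lie below the diagonal in both panels.

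Among the members, 8 of 1335 (0.599%) had an unadjusted p under 0.05 both with and without replicate 2. Each had the same sign in both fits and groups that did not overlap in CPM. The share of all tested genes that met this rule is not given here. In each single fit the members' share was below that of all tested genes. Among the 8 were Il2ra, Tigit, Lag3, Neb, Wnk1 and Malat1, lower with anti-CTLA-4, and Mob1a, higher. The set was chosen after its values were seen, and none of the 8 passed the adjusted threshold in either fit. The fits share 2 of 3 anti-CTLA-4 libraries and all controls, so the second is no independent support.

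Il2ra (ENSMUSG00000026770, GRCm38 chromosome 2, 11642807 to 11693193) encodes the interleukin-2 receptor chain that gives regulatory and activated T cells high affinity for this cytokine. It read 5987, 8761 and 9748 CPM in the controls and 5793, 2179 and 4853 CPM with anti-CTLA-4, that is a mean of 8166 ± 1950.1 CPM against 4275 ± 1875 CPM (SD, n = 3 each). All 3 anti-CTLA-4 libraries lay below the lowest control, replicate 1 by a small margin. The fitted log2 change was -0.87 (SE 0.24) (edgeR adjusted p = 0.337), and -0.59 (SE 0.19) without replicate 2 (edgeR adjusted p = 0.66). Tigit (ENSMUSG00000071552, GRCm38 chromosome 16, 43648867 to 43664146) encodes an inhibitory receptor for the nectin-like ligands CD155 and CD112 and is abundant on regulatory T cells. It stood at 4530.5, 5337 and 6352 CPM in the controls and 4296, 1173 and 2639 CPM with anti-CTLA-4, again with no overlap and with replicate 1 nearest to the controls. Its log2 change was -0.94 (SE 0.26), edgeR adjusted p = 0.337, and -0.61 without replicate 2, adjusted p = 0.66. Lag3 (ENSMUSG00000030124, GRCm38 chromosome 6, 124904361 to 124911705), an inhibitory receptor that binds MHC class II, read 172, 527 and 751 CPM in the controls and 152, 53.9 and 143 CPM with anti-CTLA-4. Control replicate 1 was close to anti-CTLA-4 replicates 1 and 3, and the other controls were over 3-fold higher than those. The log2 change of Lag3 was -2.0 (SE 0.86), and -1.70 without replicate 2. Il2ra and Tigit passed the adjusted threshold when anti-CTLA-4 replicate 1, the library nearest to the controls, was left out (edgeR adjusted p = 0.0124 and 0.00127), as did Malat1 (0.0276) and, among the other members, only Psap. Il2ra, Tigit and Lag3 changed sign, to 1.56, 1.32 and 0.34, under median-of-ratios factors, where the factor of replicate 2 was 0.0615. Per kilobase of exon, the mean level over the 6 libraries was 4412 CPM for Tigit, 1089 CPM for Il2ra, 550.2 CPM for Foxp3 and 142 CPM for Lag3.

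Mob1a (ENSMUSG00000043131, GRCm38 chromosome 6, 83326016 to 83343776) encodes a coactivator of the LATS kinases of the Hippo pathway. It read 154, 433 and 509 CPM in the controls and 894, 2890.0 and 668 CPM with anti-CTLA-4, with all 3 anti-CTLA-4 libraries above every control and replicate 2 far above the others. Its log2 change was 2.12 (SE 0.59), edgeR adjusted p = 0.337, and 1.12 (SE 0.51) without replicate 2, adjusted p = 0.66. It passed in 1 of 18 alternative fits, that with TMM factors over all tested genes (edgeR adjusted p = 0.00146). Neb, the giant actin-binding protein nebulin of muscle thin filaments, read 1001, 1239 and 1718 CPM in the controls and 418, 244 and 640.2 CPM with anti-CTLA-4, with a log2 change of -1.55 (SE 0.51) and -1.30 without replicate 2. Wnk1, a kinase that regulates ion transporters, stood at 2402, 2128 and 2677 and 1642, 985 and 1350.3 CPM in the same order, with log2 changes of -0.80 and -0.66. In both genes each treated mouse read lower than every control mouse, with replicate 2 the lowest. Malat1, an abundant nuclear long noncoding RNA, stood at 9198, 12088 and 11415 and 8868, 3460.2 and 7525 CPM, with a log2 change of -0.66 and -0.39 without replicate 2. The gap between the groups was narrow for Malat1, since anti-CTLA-4 replicate 1 was just under control replicate 1.

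**Figure D3:**
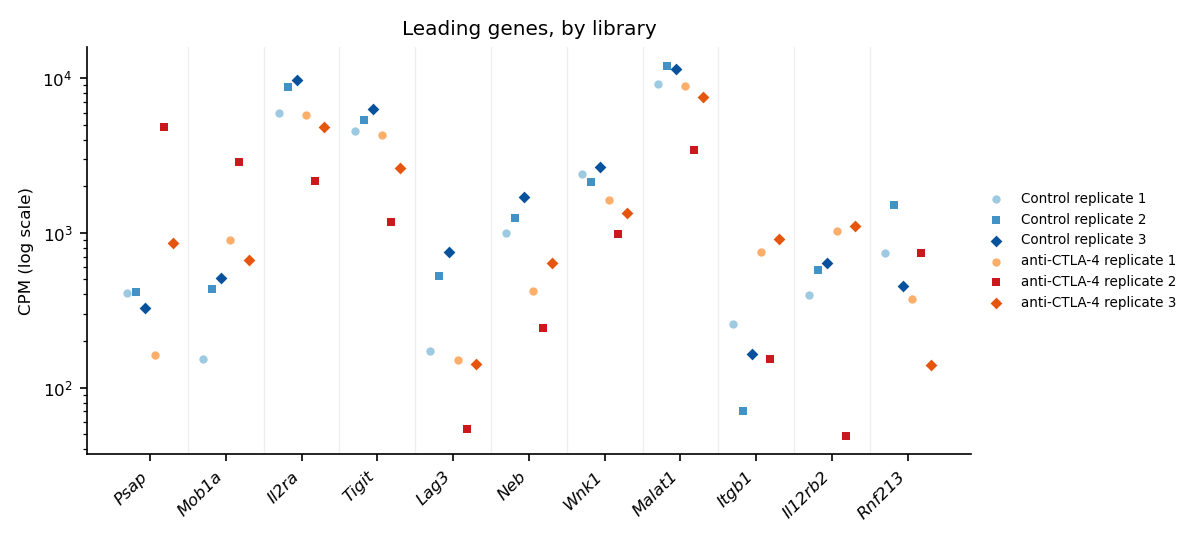
CPM on a log axis for 11 genes described in the text, 1 point per library, with colours for the 6 libraries. Il2ra, Tigit, Lag3, Neb, Wnk1 and Malat1 are below, and Mob1a is above, the control range in all 3 treated mice, whereas the high value of Psap is that of replicate 2, at 4805 CPM.

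The 250 bases before the RefSeq start of the 3 genes with the smallest p among these 8 are given, since they are where regulators of these levels would be looked for first. They were read from RefSeq (build GRCm38.p6), 5′ to 3′ on the gene's strand, in lower case, with capitals for a match to 1 of 4 motifs on either strand. The motifs were GGGA and CC with any 4 bases between them for NF-kappaB, TTCNNNGAA for STAT factors, TGANTCA for AP-1 and GTAAACA for forkhead factors, and they were chosen after the Il2ra window had been seen.
Il2ra, chr2:11642542-11642791, plus strand: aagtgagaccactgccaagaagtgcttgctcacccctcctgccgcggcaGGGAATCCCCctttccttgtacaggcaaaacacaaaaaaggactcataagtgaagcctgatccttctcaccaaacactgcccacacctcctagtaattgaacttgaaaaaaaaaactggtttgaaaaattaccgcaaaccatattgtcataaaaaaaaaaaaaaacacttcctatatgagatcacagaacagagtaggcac
Tigit, chr16:43664185-43664434, minus strand: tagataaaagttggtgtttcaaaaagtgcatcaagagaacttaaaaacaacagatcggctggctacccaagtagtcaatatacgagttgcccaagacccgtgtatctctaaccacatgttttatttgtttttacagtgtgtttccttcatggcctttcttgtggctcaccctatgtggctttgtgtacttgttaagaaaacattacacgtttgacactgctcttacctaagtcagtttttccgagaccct
Mob1a, chr6:83325789-83326038, plus strand: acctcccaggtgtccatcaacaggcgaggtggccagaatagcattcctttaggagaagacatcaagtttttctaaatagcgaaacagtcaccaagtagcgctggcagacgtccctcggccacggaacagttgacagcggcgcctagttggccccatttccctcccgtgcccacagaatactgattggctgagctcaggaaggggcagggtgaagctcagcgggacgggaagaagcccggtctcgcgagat
The Il2ra window held 1 NF-kappaB match, starting 201 bases before the start site, and the Tigit and Mob1a windows held none of the 4 motifs. Of 32851 mouse windows of the same length, 17.6% held the NF-kappaB letters, 7.02% the STAT letters, 6.75% the AP-1 letters and 3.17% the forkhead letters. The matches are a description of letters, and the libraries hold no measurement of binding. RefSeq starts differ from the gene coordinates given above, and by those coordinates the Mob1a window runs into the gene.

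Without replicate 2, the smallest p values belonged partly to other genes. They were picked after their values were seen, as the 7 per direction with the smallest p, and none passed the adjusted threshold (edgeR adjusted p = 0.66 for each named here). Itgb1, the beta subunit of the integrins that bind fibronectin, collagen and VCAM-1, read 256, 70.2 and 164 CPM in the controls and 748, 153 and 914 CPM with anti-CTLA-4. Replicates 1 and 3 were above every control and replicate 2 lay among the controls, so the log2 change was 2.37 (SE 0.70) without replicate 2 and 1.92 (SE 1.01) with it. Il12rb2, the chain that lets T cells respond to interleukin-12, read 397, 577 and 642 CPM in the controls and 1024, 48.7 and 1100.3 CPM with anti-CTLA-4, with replicates 1 and 3 above every control and replicate 2 far below them. Fyb, the adhesion adaptor ADAP, read 395, 1009 and 944 and 866, 478 and 1939 CPM, and its replicate 1 lay inside the control range. Serf2 read 40.9, 140.0 and 78.0 and 275, 58.2 and 424 CPM, with replicate 2 among the controls. On the lower side, Rnf213, a large interferon-induced ubiquitin ligase, read 741, 1522 and 455 CPM in the controls and 374, 743 and 140.5 CPM with anti-CTLA-4 (log2 change -1.78, SE 0.52, without replicate 2). Plec, a cytoskeletal linker, stood at 984, 993 and 1125 and 544, 1296 and 314 CPM. Snrnp200, a helicase of the spliceosome, stood at 244, 287 and 279.9 and 7.65, 257 and 59.2 CPM. In each of these 3 genes replicates 1 and 3 lay below every control, while replicate 2 lay inside or above the control range.

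The groups did not overlap for 44 members higher with anti-CTLA-4 (3.3%, against 1.57% of all 7858 tested genes) and for 80 lower (5.99%, against 10.4%). Without replicate 2 these numbers were 129 higher (9.66%, against 8.03%) and 165 lower (12.4%, against 13.9%). Groups separate more easily with fewer libraries, so the numbers with and without replicate 2 are not directly comparable. An exact permutation test of 3 against 3 libraries cannot give a p below 0.1, so separation alone is weak support for any single gene. The tested genes as a whole include those that dropped out of 1 or more libraries, which the choice of members leaves out. Replicate 2 held the extreme value in 32 of the 44 and 47 of the 80, and 3 of the 44 and 8 of the 80 had an edgeR p under 0.05. Under TMM factors over genes at 5 CPM in all 9 libraries, those of the fit, the counts were 51 higher and 70 lower, and under factors over all tested genes 131 higher and 26 lower, so the balance between directions turns with the scaling.

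The widest gaps above the controls were those of Usp7 and Fam193a. Usp7 read 110.1, 85.9 and 125 CPM in the controls and 315, 434.9 and 374 CPM with anti-CTLA-4, and the gene encodes a deubiquitinase whose substrates include Mdm2 and Foxp3. Fam193a read 105, 76.7 and 75.3 CPM in the controls and 430.7, 295 and 252 CPM with anti-CTLA-4. Every anti-CTLA-4 library exceeded every control by a wide margin in both, with log2 changes of 1.87 (SE 1.36) and 2.0 (SE 1.33), edgeR adjusted p of 0.849 and 0.749, and log2 changes of 1.71 and 2.03 without replicate 2. Glyr1, a nucleosome-binding cofactor, read 63.1, 24.3 and 55.9 CPM in the controls and 232, 112 and 133 CPM with anti-CTLA-4. Exoc6b, a subunit of the exocyst that tethers secretory vesicles, read 58.5, 73.1 and 98.1 and 169, 263 and 302 CPM. In these 4 genes replicate 2 was not set apart from replicates 1 and 3, unlike in the next ones. Tmed7, a cargo receptor between the endoplasmic reticulum and the Golgi, read 57.7, 57.1 and 26.9 and 97.2, 636 and 174 CPM. Rb1, the retinoblastoma cell cycle inhibitor, stood at 54.4, 76.7 and 57.9 and 122, 889 and 225 CPM. Sos1, the exchange factor that activates Ras, stood at 86.9, 67.5 and 26.4 and 133, 597 and 129 CPM. Here replicates 1 and 3 lay above every control and replicate 2 was several times higher than both. Of the others in the 12 with the widest gaps, Eif3g (a translation initiation factor subunit), Hyou1 (a chaperone of the endoplasmic reticulum), Sh3bgrl, Tmem14c and Rab1 had log2 changes of 1.81, 1.81, 1.92, 3.80 and 0.81, and 1.16, 1.45, 0.95, 1.19 and 0.57 without replicate 2. None of the 12 passed the adjusted threshold in edgeR, and DESeq2, with its shifted scaling, called Glyr1 and Exoc6b (DESeq2 adjusted p = 0.0341 and 0.013).

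The widest gaps below the controls were larger. Snx9, a sorting nexin of clathrin-mediated endocytosis, read 293, 126 and 244 CPM in the controls and 30.5, 14.6 and 10.4 CPM with anti-CTLA-4, with a log2 change of -3.51 (SE 2.13) and -3.40 without replicate 2 (edgeR adjusted p = 0.65 and 0.66). Rbm28, a nucleolar RNA-binding protein, read 117, 127 and 131 and 29.4, 35.1 and 15.9 CPM, and its 3 controls were tightly grouped. Epas1, the hypoxia-inducible factor HIF-2 alpha, read 225, 212 and 203 and 58.2, 79.8 and 18.6 CPM. In these 3 genes each anti-CTLA-4 library was well below the lowest control. Sqstm1, the autophagy receptor p62, stood at 135, 93.0 and 276 and 40.4, 8.74 and 8.48 CPM. Ppm1b, a phosphatase of the metal-dependent family, stood at 285, 275 and 256 and 126, 101 and 90.4 CPM, with little spread inside either group and replicate 2 between the other anti-CTLA-4 libraries. Kpna3, an importin alpha, read 103, 54.7 and 99.3 and 19.7, 7.17 and 19.8 CPM, and Scaf8, which binds the tail of RNA polymerase II, read 158, 97.9 and 143 and 41.4, 40.2 and 27.4 CPM. The rest of the 12 were Sec11a, a signal peptidase subunit, Mafg, a small Maf factor, Trp53i11, Snap23, a membrane fusion protein, and Tbl1xr1, a part of the NCoR corepressor complex, with log2 changes of -2.33, -2.44, -2.42, -2.90 and -1.82, and -3.35, -2.72, -2.02, -2.67 and -1.36 without replicate 2. None of the 12 passed the adjusted threshold in edgeR, and genes at about 100 CPM in controls were among the most variable.

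**Figure D4:**
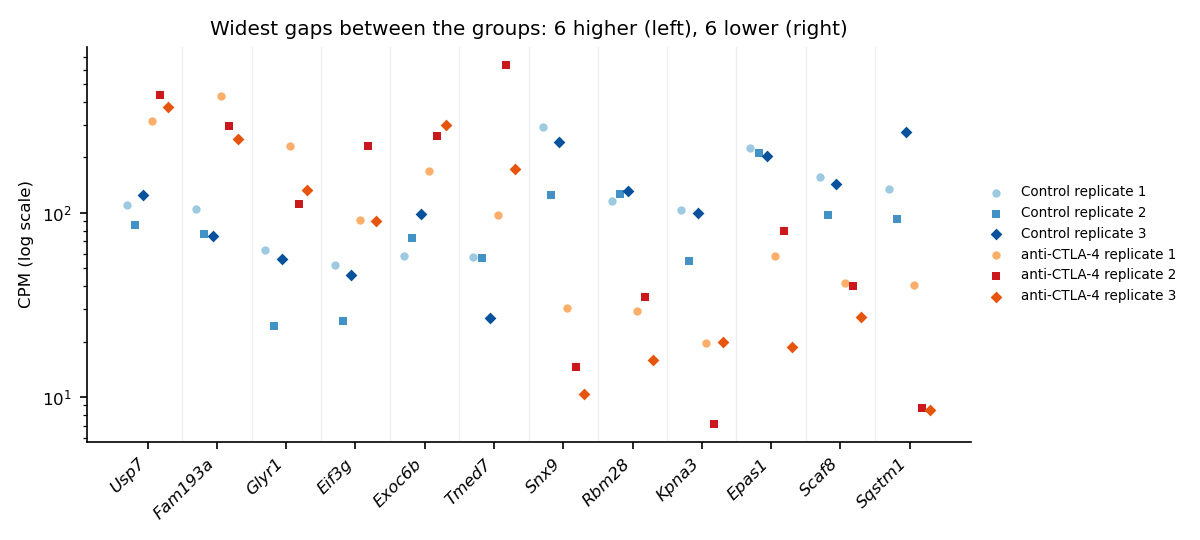
CPM on a log axis for the 6 higher (left) and 6 lower (right) genes with the widest gaps between the groups, 1 point per library. In Usp7, Fam193a, Glyr1 and Exoc6b replicate 2 lies with the other anti-CTLA-4 libraries, in Tmed7 it is far higher at 636 CPM (replicate 2), and for Snx9, Rbm28 and Epas1 all 3 treated mice lie below the control range.

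Regulatory T cell genes were abundant in both groups, and the lower values with anti-CTLA-4 were shared by part of them. Of 19 tested genes of regulatory T cell identity, 8 were consistently detected, and 0 were called by edgeR, with 2 at an unadjusted p under 0.05. The groups did not overlap for Il2ra, Tigit and Ikzf2, lower, and for Itgae, higher, beside 5.99% lower and 3.3% higher of all 1335 members and 10.4% and 1.57% of all tested genes. Foxp3 read 2362, 2727 and 3231 CPM in the controls and 3028, 898 and 2863 CPM with anti-CTLA-4, with replicates 1 and 3 inside the control range, and its log2 change was -0.24 with replicate 2 and 0.11 without it. Ikzf2, which encodes the transcription factor Helios, read 1779, 1948 and 1664 and 1602, 719 and 1234 CPM, with log2 changes of -0.54 and -0.32. Itgae, the CD103 integrin chain that binds E-cadherin, read 304, 224 and 266 and 566, 786 and 313 CPM. Ctla4, which encodes the antibody's target, stood at 755, 1124 and 1086 CPM in the controls and 641, 499 and 882 CPM with anti-CTLA-4, and its groups overlapped. The log2 change of Ctla4 was -0.49 (SE 0.60) and -0.36 without replicate 2, edgeR adjusted p = 1 and 1. Icos, the receptor of the sort, read 1851, 2042 and 2866 and 1986, 507 and 1706 CPM, and Cd28 read 3539, 3032 and 2476 and 3461, 564 and 2043 CPM, with replicate 2 the lowest library in both. The remaining consistently detected members of the CD28 family list were the ligands Cd80 and Cd274. Cd80 read 46.7, 130.0 and 236 and 41.0, 17.0 and 26.4 CPM with no overlap. It was the 1 separated gene of the list's 5, beside 5.99% of all members and 10.4% of tested genes that separated lower. All 5 members of that list had a negative fitted change with and without replicate 2, and none was called (0 at an unadjusted p under 0.05). Pdcd1, which encodes PD-1, was not consistently detected. The median difference in log2 CPM over the 8 identity genes was -0.52 with replicate 2 and -0.13 without it, beside -0.05 and -0.03 over all 1335 genes. For 7 genes of effector and tissue regulatory T cells it was -0.81 and -0.27, and for the 5 of the CD28 family -0.89 and -0.37.

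The T cell receptor and interleukin-2 receptor lists had medians below 0 that were nearer to 0 without replicate 2, unlike the NF-kappaB list. The adhesion and chemokine receptor list had a median difference of -0.27 with and 0.09 without replicate 2. Of 28 tested genes of the receptor complex and its first kinases and adaptors, 14 were consistently detected, with a median difference of -0.80 with and -0.15 without replicate 2. The groups did not overlap for Cd247, Fyn and Cd2, all lower (3 of 14, beside 5.99% of all members and 10.4% of tested genes), and edgeR called 0 of the 14, with 0 at an unadjusted p under 0.05. Cd247, the zeta signalling chain, read 99.96, 173 and 223 CPM in the controls and 85.5, 36.7 and 13.3 CPM with anti-CTLA-4. Fyn, a Src-family kinase, stood at 254, 312 and 366 and 201, 146 and 182 CPM, and the common leukocyte phosphatase Ptprc read 2444, 3733 and 2007 CPM in the controls and 2573, 501 and 2413 CPM with anti-CTLA-4, where replicates 1 and 3 were inside the control range. Of 28 tested genes of the interleukin-2 receptor, JAK and STAT list, 13 were consistently detected, 10 had a negative fitted change with replicate 2 and 7 without it, and Il2ra was the 1 with an unadjusted p under 0.05. Jak3, the kinase that binds the common gamma chain, read 249.9, 248 and 303 and 83.7, 15.7 and 211 CPM, and Il21r, the interleukin-21 receptor, read 454, 545 and 550.2 and 284, 353 and 352 CPM, both with no overlap. With Il2ra, 3 of the 13 were lower without overlap, beside 5.99% of all members and 10.4% of tested genes. The common gamma chain Il2rg read 1464, 1692 and 1987 CPM in the controls and 2079.5, 569.8 and 1588 CPM with anti-CTLA-4, with replicates 1 and 3 near or inside the control range. The STAT5 target Pim1, a survival kinase, read 1277, 1441 and 974 and 1197, 2052 and 1822 CPM, with replicates 2 and 3 above every control. Among 16 immediate response genes the median difference was -0.04 and -0.01, and the groups separated for Klf4, higher. Without replicate 2 they separated for Klf4, higher, and for Fosl2 and Nfkbiz, lower. Of all members 3.3% were higher without overlap, and 9.66% higher and 12.4% lower when replicate 2 was left out. The same shares of tested genes were 1.57%, 8.03% and 13.9%. Klf4, a zinc finger factor, read 570.2, 546 and 313 and 601, 2421 and 585 CPM, with a log2 change of 1.43 (SE 0.61) that was 0.34 without replicate 2. The 6 NF-kappaB genes had a median of -0.37 with and -0.49 without replicate 2, and none was called or reached an unadjusted p under 0.05. Of the adhesion and chemokine receptor list, 14 genes were consistently detected, and without replicate 2 the groups separated for 4, all higher, among them Itgb1, Itgae and Cd44, beside 9.66% higher of all members and 8.03% of tested genes in that setting. Cd44, the hyaluronan receptor of activated T cells, read 362, 441 and 462 CPM in the controls and 620.1, 281 and 559 CPM with anti-CTLA-4, where replicates 1 and 3 lay above every control and replicate 2 below them. The alpha 4 integrin chain Itga4 went the other way, at 649, 1094 and 518 and 597, 10.4 and 239 CPM, with a log2 change of -1.35 (SE 0.62) that was -0.82 without replicate 2.

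**Figure D5:**
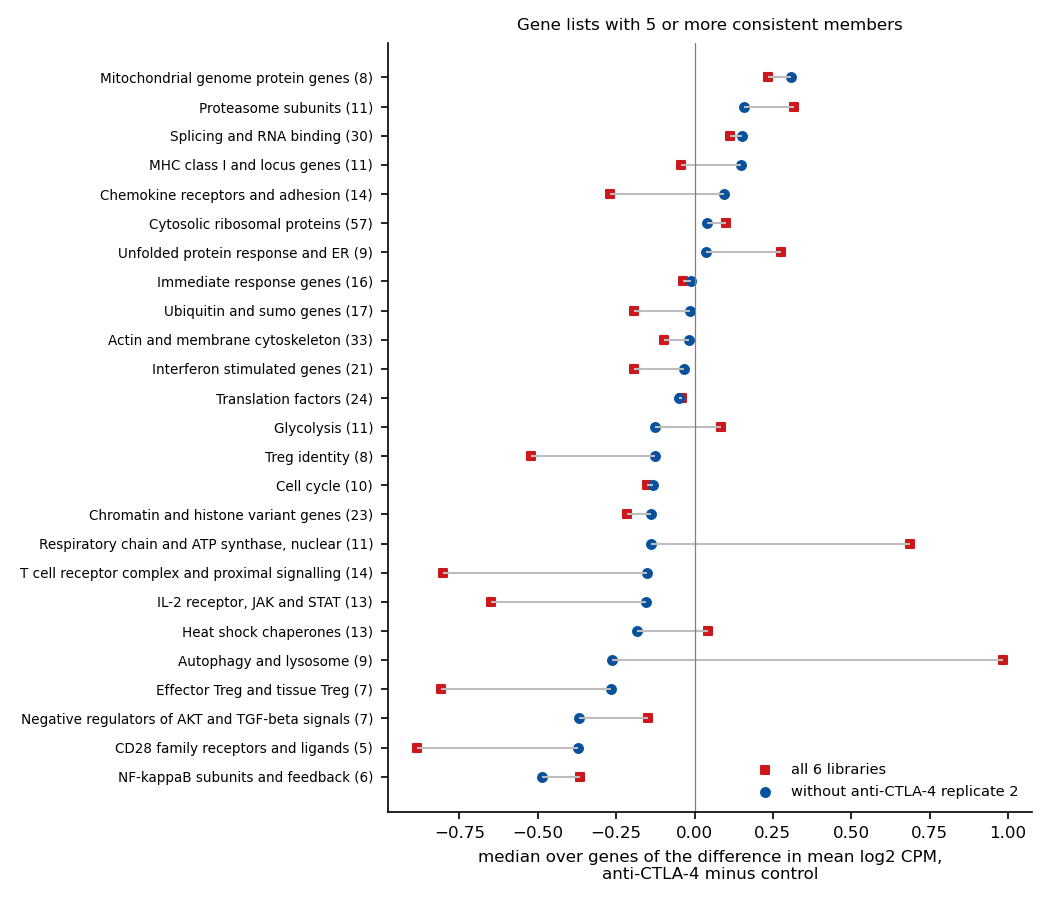
Median over each list's consistently detected genes (number in brackets) of the difference in mean log2 CPM, anti-CTLA-4 minus control, with all 6 libraries (red squares) and without replicate 2 (blue circles). Most lists move toward 0 without replicate 2; autophagy and lysosome go from 0.98 to -0.26, the nuclear respiratory chain from 0.69 to -0.14 and the T cell receptor complex from -0.80 to -0.15.

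Lists of metabolism and protein handling had medians of both signs without replicate 2. Of 80 tested cytosolic ribosomal protein genes 57 were consistently detected, with a median difference of 0.10 and 0.04 without replicate 2. Rpl11 was above every control, at 1564, 893 and 1405 CPM in the controls and 1620.3, 1862 and 2548 CPM with anti-CTLA-4, and Rpl8 (425, 139 and 159 and 70.9, 80.7 and 84.6 CPM) was below. All 8 consistently detected protein genes of the mitochondrial genome had positive fitted changes in both fits, with a median difference of 0.24 and 0.31. mt-Nd5 read 26077, 17544 and 14813 and 25393, 28976 and 23450.1 CPM, with overlapping groups, and 0 of the 8 were called. The complex I gene mt-Nd4 was the 1 member of this list with an unadjusted p under 0.05 (edgeR, with replicate 2), at 4533, 2457 and 2420.4 and 4323, 5199 and 3949 CPM. The 11 nuclear genes of the respiratory chain and ATP synthase went from a median of 0.69 to -0.14 without replicate 2, and the 9 of autophagy and the lysosome from 0.98 to -0.26. In the lysosome list Ctsb, a cysteine protease, read 102, 142 and 86.7 CPM in the controls and 36.8, 1496 and 198 CPM with anti-CTLA-4, where, as for Psap, replicates 2 and 3 lay above every control and replicate 1 below. Ctss, the protease that trims the MHC class II invariant chain, read 622, 232 and 579.6 and 764, 1262 and 669.8 CPM and was above every control in all 3. Macrophages express these lysosomal genes as well, and whether macrophage RNA had a part in these values was not tested. The sum of the 16 macrophage and monocyte markers was 350 to 766 CPM in controls. In anti-CTLA-4 replicates 1, 2 and 3 it was 1333, 8141 and 518 CPM. Of 11 glycolytic genes, Pkm (pyruvate kinase) was above the controls, at 386, 970.4 and 838 and 1073, 1347 and 1304 CPM, and Gpi1 (glucose-6-phosphate isomerase) below, at 187, 449 and 426 and 113, 178 and 139 CPM. Without replicate 2 Ldha (lactate dehydrogenase) and Eno1 (enolase) were also below every control. Of all members 3.3% lay above and 5.99% below every control with all libraries, and 9.66% and 12.4% without replicate 2. The same shares of tested genes were 1.57% and 10.4%, and 8.03% and 13.9%. The 2 consistently detected genes of cholesterol synthesis went from a median of 0.58 to -0.60 without replicate 2. The 30 splicing genes had medians of 0.11 and 0.15, the 11 proteasome genes 0.32 and 0.16, the 21 interferon-stimulated genes -0.19 and -0.03, and the 10 cell cycle genes -0.15 and -0.13. Within the cell cycle list the DNA topoisomerase Top2a read 606, 589 and 315 and 220.2, 34.0 and 186 CPM, below every control in all 3, whereas the proliferation marker Mki67 read 613, 515 and 675 and 279.7, 857 and 820.2 CPM with overlap. Of 23 chromatin genes the groups separated for 4, among them Smarca4 and Ncor1, lower, and H3f3b, higher (3 lower and 1 higher in all, beside 5.99% and 3.3% of all members and 10.4% and 1.57% of tested genes). Smarca4, the BRG1 remodelling ATPase, read 127, 92.1 and 159 and 45.6, 12.1 and 65.5 CPM, with every treated mouse below the lowest control. No gene of any of the 31 lists other than Psap passed edgeR's adjusted threshold.

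The precision of these comparisons rose with the level of a gene. The median SD of log2 CPM among the controls was 0.99 for the 174 members at a mean of 50 to 100 CPM and was, by tiers, 0.83 (427 genes at 100 to 200 CPM), 0.59 (487 at 200 to 500) and 0.41 (155 at 500 to 1000), and 0.27 for the 74 at 1000 CPM or more. Among the anti-CTLA-4 libraries the same medians were 1.29, 1.34, 1.14, 0.84 and 0.60. The median range over the 6 libraries was 11.5-fold, 10.3-fold, 6.09-fold, 3.89-fold and 2.66-fold. The 18 members under 50 CPM had medians of 0.79 and 1.30. The share of genes whose groups did not overlap showed no such order, at 12.1%, 8.67%, 8.62%, 11% and 9.46%, and was 0% under 50 CPM. Il2ra, Tigit, Malat1 and Wnk1 were thus in the tier of highest precision, and Snx9, Rbm28 and Epas1 in tiers where a several-fold range was usual. Of the 1323 members with an annotation 1292 (97.7%) were protein coding, 8 were long intergenic noncoding RNAs and 2 mitochondrial ribosomal RNAs. The median exon length was 5635 bases for members and 4900 for the other tested genes, and the median of mean CPM 217 and 30.8.

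The most abundant and the least variable members included genes with small and with larger fitted changes. Mitochondrial ribosomal RNA mt-Rnr1 read 42132, 39624 and 48316 CPM in the controls and 47958, 46773 and 44412 CPM with anti-CTLA-4, with a log2 change of 0.16 (SE 0.11), and 0.11 without replicate 2. The cytochrome b gene mt-Cytb read 21213, 9945 and 11724 and 16825, 32529.9 and 15359 CPM, highest in replicate 2, with a log2 change of 0.67 (SE 0.56) that was 0.20 without replicate 2. Xist, the noncoding RNA of the inactive X chromosome, stood at 8486, 15336 and 8015 and 10428, 4645 and 7289.7 CPM, with overlap and a log2 change of -0.43 (SE 0.21) that was -0.23 without replicate 2. Polr2a, the large subunit of RNA polymerase II, had 1 of the smallest ranges, at 3872, 3789 and 4353 and 4231, 3568 and 4014 CPM (log2 change 0.04 (SE 0.30), and 0.06 without replicate 2). The chaperone Hsp90ab1 read 1750.4, 1854 and 1969 and 1752, 1824 and 2182 CPM, and Capzb, an actin capping protein, read 1821, 2346 and 2064 and 2134, 1875 and 1948 CPM. In replicate 2 these 3 genes were within the range of the other libraries or close to it.

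The 1159 genes lost through replicate 2 held further T cell genes, which can be compared over 5 libraries. Over all 2494 genes at 5 CPM in those 5 libraries, the groups did not overlap for 264 higher and 268 lower genes (10.6% and 10.7%). Of all 7858 tested genes, 8.03% were higher and 13.9% lower without overlap in that setting. None of the 2494 was called by edgeR without replicate 2. The genes named next have the smallest p among the 1159 and were picked after their values were seen (edgeR adjusted p = 0.66 each without replicate 2). Tnfrsf9, the costimulatory receptor 4-1BB, read 440.4, 907 and 791 CPM in the controls and 245 and 419 CPM in anti-CTLA-4 replicates 1 and 3 (log2 change -1.09, SE 0.54). Klrg1, a lectin receptor of effector T cells and effector regulatory T cells, read 629, 804 and 1097 CPM in the controls and 553 and 268 CPM (log2 change -1.01, SE 0.42). Both were below every control in replicates 1 and 3 and under 1 CPM in replicate 2. Skap1, an adaptor that links the T cell receptor to integrins, read 63.9, 81.6 and 73.5 CPM in the controls and 416 and 347 CPM (log2 change 2.41, SE 1.11). Csnk2b, the regulatory subunit of casein kinase 2, read 30.4, 47.9 and 34.3 CPM and 300.3 and 267 CPM (log2 change 2.94). Muc4 and Uhmk1 were lower, with log2 changes of -2.61 and -2.51, and Fnbp4, Bclaf1 and L1cam higher, with 2.37, 1.89 and 1.65. In replicate 2 each of these genes was under 1 CPM.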

How the data were processed

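RNA of sorted ICOS+ CD4 T cells was measured in 9 libraries of individual mice (3 groups of 3), of which the 6 control and anti-CTLA-4 libraries are described. The authors deposited raw counts per gene symbol. Per the submitters' processing notes they used TopHat2, HTSeq and DESeq2 with build GRCm38. Neither versions nor annotation is stated. The deposited counts are labelled first-strand, but the notes do not give the HTSeq strand setting. Whether antisense partners share reads was not checked. Summary rows that name no gene were left out of library sizes; genes held 33% to 40.7% of all counts. CPM is the count per 1000000 gene counts. A floor of 3 counts equals 0.0723 to 0.0985 CPM and covers counting error only, since reads carry no molecular identifiers.

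Genes kept by filterByExpr (minimum count 10) were fitted with the robust quasi-likelihood method of edgeR 4.0.16 in R 4.3.3, on all 9 libraries, with group as the only term and Benjamini-Hochberg adjustment over 7858 genes at a threshold of 0.05. TMM factors came from genes at 5 CPM or more in all 9 libraries, because factors over all genes gave replicate 2 a value of 0.403 (0.941 here). Fits without replicate 2 repeat the filter and recompute the factors, over the same genes chosen with all 9 libraries. Standard errors were derived from the F statistic and are approximate. List medians use unscaled log2 CPM. Alternatives used DESeq2 1.42.0, limma 3.58.1, other factors, filters and levels, 6 libraries only, the replicate number as a block, and each library left out. Fits were tested on simulated data. Of 1335 members, 1323 matched GENCODE release 21 for mouse (GRCm38), which gave coordinates and lengths.

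Named genes are members past the threshold, the 12 per direction with the widest gap between groups, the 10 most abundant, the 8 of smallest range, of each of 31 lists up to 3 by level and 2 by p, and 12 fixed genes. Those past the adjusted threshold but not consistently detected, with p under 0.05 in both fits, smallest p without replicate 2, far off in replicate 2, or separated list members were added after their values were seen. Members, lists and rules were chosen with earlier results of these data known. 32 members (receptor segments, predicted genes, clones, pseudogenes) are only counted, and some other members are not reported here.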

Additional observations from a re-analysis of the deposited data

How the results depend on the processing

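The number of called genes was low under most settings. Instead of 3 genes and 1 consistently detected gene, TMM factors over all tested genes gave 29 and 4, DESeq2 558 and 18, and the 6 libraries alone 1 and 0. Median-of-ratios factors, library totals, limma voom, the replicate block, edgeR without its robust option (chosen after seeing the data) and a fit of the consistently detected genes alone gave 0 and 0. With no filter on low counts 0 consistently detected genes were called, and so it was among genes at 5 CPM in the 5 other libraries when replicate 2 was also left out of the fit, a setting added after seeing the data. Leaving out 1 library at a time gave 0 to 11 genes and 0 to 4 consistently detected ones; the highest numbers came without anti-CTLA-4 replicate 1. The median log2 change of consistently detected genes, 0.15 as reported, was 0.84 with TMM over all genes, 3.19 with median-of-ratios factors and with DESeq2, 0.087 with library totals, 0.067 with the replicate block, -0.020 with limma voom, -0.13 for genes at 5 CPM in the 5 other libraries, and -0.0021 to 0.199 with 1 library left out. The number of genes whose groups do not overlap, 124 as reported, was 40 at 100 CPM or more, 227 for genes at 5 CPM in the 5 other libraries, 210 to 316 with 1 library left out, and 532 for that gene set without replicate 2 (added after seeing the data). The difference in the share of gene counts held by consistently detected genes, 3.50 percentage points (66.8% against 63.3%, a description with no test because the choice of genes used these values), turned to -1.14 for genes at 5 CPM in the 5 other libraries and was 0.51 without replicate 2. The cause of these changes was not tested, and some settings also use fewer libraries or genes. Since groups separate more easily with fewer libraries, the numbers of separated genes with 1 library left out are not directly comparable with 124.

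Of 219 genes named by rule or added, 92 kept the sign of their fitted change in each alternative fit that tested them (17 to 19 fits per gene), and 10 were called in at least 1 of these. Replicate numbers are shared by the groups, and the labels do not state what they stand for. Same-numbered libraries had deviations correlated at -0.0392 to 0.103, against -0.11 to 0.0964 for libraries of different numbers. With 3 libraries per group these values cannot exclude a shared batch. The fit's common estimate of the spread, over all 7858 tested genes and 9 libraries, equals a coefficient of variation of 1.86 between libraries. It is not an estimate for the consistently detected genes alone, and it does not separate mice from RNA amplification. A spread of this size limits what 3 libraries per group can show.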
